A study of Mus musculus with 6 samples.

Results

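The enzymes of the citric acid cycle were followed in whole fetal livers of 3 Rb null and 3 wild type mouse embryos at embryonic day 12.5. Of the 9 genes considered, Idh2 rose in Rb null livers, Ogdh, Cs and Mdh2 fell, and Idh3a, Idh3g, Sucla2, Suclg1 and Fh1 did not pass the test. The falls of Cs and Mdh2, unlike the changes of Idh2 and Ogdh, were close to the size typical of equally bright genes. The genes were taken by name, as every array probe set annotated to one of these 9 symbols and to no other. That gave 12 of the 12488 probe sets on the array and 9 of its 8251 genes. The embryos came from matings between Rb heterozygous 129sv mice and were otherwise untreated. The null genotype belongs to the whole embryo, and the labels name no transgene or Cre driver that would limit the loss to the liver. Livers were disaggregated in saline, and each was read on its own Affymetrix array from 6 ug of total RNA. Because whole livers were measured, fewer cells of a type and less RNA per cell cannot be told apart.

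The citric acid cycle runs in the mitochondrial matrix and oxidises acetyl groups to carbon dioxide while reducing the electron carriers that feed the respiratory chain. Citrate synthase starts a turn by joining acetyl-CoA to oxaloacetate, isocitrate and 2-oxoglutarate are then decarboxylated, and succinate, fumarate and malate lead back to oxaloacetate. The cycle also supplies succinyl-CoA, from which haem synthesis begins, which ties it to the red cell production that dominates the liver at this age. Erythroblasts lose their mitochondria only at the end of maturation.

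Levels are MAS5 signals, linear brightness values computed by the authors and nearly equal in trimmed mean across the arrays. Changes are differences of log2(signal + 50.02) between Rb null and wild type means, called log2 fold changes and given ± SE. Folds are taken from these log2 fold changes, so they include the added 50.02 and can differ slightly from ratios of mean signals. A gene was called higher or lower at an adjusted p below 0.05 in limma, a linear model fitted to all 6793 probe sets whose mean signal exceeded 150.1. All 9 genes passed that filter through their brightest probe set. The 3 further probe sets, second ones for Idh3a, Idh3g and Sucla2, had mean signals of 8.92, 31.8 and 47.2, were not tested and carry no level that was shown to be above background. Rb1 itself read 139, 142 and 127 in Rb null embryos, against 791, 754 and 706 in wild type embryos (log2 fold change -2.10 ± 0.09, adjusted p = 7.8e-06), though whether its probes lie in the deleted stretch is not stated in the labels. Its Rb null values all lay below the filter, in a range where no signal over background was established, which leaves the size of that difference uncertain. The 2% trimmed means of the arrays lay between 500.22 and 500.25, while median signals were 197.65 to 203 in Rb null and 176.55 to 186.5 in wild type arrays. The number of arrays limits the precision.

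Promoter windows of RefSeq (build GRCm38.p6), running from 250 bases before to 50 bases after a transcript start, were held for 8 of the 9 genes, all but Idh3a. They were searched on both strands for letters of E2F sites (TTTCGCGC, TTTCCCGC, TTTGGCGC or TTTGCCGC), since Rb acts through E2F factors, for the estrogen-related receptor element TCAAGGTCA and for the NRF1 core GCATGCGC, both tied to mitochondrial genes. None of these strings contains another. The E2F strings occurred in 2.26% of all 32851 windows, the receptor element in 0.423% and the NRF1 core in 2.71%. No window of these genes held an E2F string or the receptor element, which says only that those letters are not in these windows. The NRF1 core was found for Ogdh alone, in 2 of its 6 windows, which overlap and share the match. Neither is the window at the outermost transcript start of Ogdh, which held no match. One of the 2 windows with the match is shown with it in capitals, together with the window of Idh2. They were chosen because Ogdh and Idh2 were the genes with the largest fall and the largest rise among the 9.

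Ogdh, chr11:6292308-6292607, plus strand: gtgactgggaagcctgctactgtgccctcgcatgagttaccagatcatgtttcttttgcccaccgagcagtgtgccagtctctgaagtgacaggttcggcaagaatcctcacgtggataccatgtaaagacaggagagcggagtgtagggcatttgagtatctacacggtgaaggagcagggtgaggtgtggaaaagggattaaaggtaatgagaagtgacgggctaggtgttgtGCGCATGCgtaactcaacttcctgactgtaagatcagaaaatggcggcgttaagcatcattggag

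Idh2, chr7:80115301-80115600, minus strand: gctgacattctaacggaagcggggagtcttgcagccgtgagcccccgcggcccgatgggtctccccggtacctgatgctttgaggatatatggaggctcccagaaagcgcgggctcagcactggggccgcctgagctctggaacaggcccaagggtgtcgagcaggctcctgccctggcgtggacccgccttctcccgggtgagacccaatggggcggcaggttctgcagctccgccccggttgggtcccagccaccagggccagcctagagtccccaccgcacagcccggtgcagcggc

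Idh2 encodes the mitochondrial isocitrate dehydrogenase that reduces NADP, and so makes NADPH inside the organelle. Its signal was 1339, 1293 and 1223 in Rb null livers, against 944, 891 and 833 in wild type livers. Every Rb null embryo lay above every wild type embryo. The means were 1285 ± 58.1 in Rb null livers and 889 ± 55.7 in wild type livers (SD, n = 3 each), a 1.42-fold rise (log2 fold change 0.51 ± 0.07, 95% interval 0.35 to 0.67, adjusted p = 0.0021). The gap between the group means was several times the spread among embryos of either genotype.

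Isocitrate is also oxidised by the NAD-dependent enzyme of the cycle proper, whose catalytic subunit is encoded by Idh3a and one of whose regulatory subunits is encoded by Idh3g. Idh3a read 514, 413 and 407 in Rb null livers and 451, 525 and 518 in wild type livers, so that 1 embryo of each genotype fell among those of the other. Its log2 fold change of -0.15 ± 0.11 (95% interval -0.40 to 0.09, adjusted p = 0.35) did not pass. Idh3g read 2602, 2773 and 2729 in Rb null livers and 2612, 2282 and 2694 in wild type livers. Its groups overlapped as well (0.10 ± 0.07, 95% interval -0.07 to 0.26, adjusted p = 0.37). The upper bounds of both intervals lay below 0.35, the lower bound for Idh2, although the difference between the genes was not tested. These intervals take no account of brightness. Relative to the median of equally bright genes, the changes were 0.49 for Idh2, 0.24 for Idh3g and -0.22 for Idh3a. A further regulatory subunit gene, Idh3b, had a mean signal of 24.7, below the filter.

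Ogdh encodes the E1 component of the 2-oxoglutarate dehydrogenase complex, which decarboxylates 2-oxoglutarate to succinyl-CoA and is a regulated step of the cycle. Its signal was 1230.4, 1218 and 1262 in Rb null livers, against 1599.8, 1535 and 1628.5 in wild type livers. The groups were well apart, with the highest Rb null embryo below the lowest wild type embryo. Ogdh averaged 1237 ± 22.8 in Rb null livers and 1588 ± 47.8 in wild type livers (SD, n = 3 each) and fell 1.27-fold (-0.35 ± 0.05, 95% interval -0.47 to -0.22, adjusted p = 0.0038). The other components of the same complex did not pass. Dlst, the E2 succinyltransferase, had a log2 fold change of -0.02 ± 0.09 (adjusted p = 0.92), and Dld, the E3 subunit that also serves the pyruvate complex, had -0.07 ± 0.06 (adjusted p = 0.46).

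Cs encodes citrate synthase, the entry enzyme of the cycle. It read 2867, 2921 and 2895.5 in Rb null livers, against 3286, 3299.5 and 3286 in wild type livers. The embryos of each genotype lay close together and the groups did not overlap (2895 ± 27.1 in Rb null and 3290.5 ± 7.80 in wild type, SD, n = 3 each). The fall was 1.13-fold (-0.18 ± 0.05, 95% interval -0.29 to -0.08, adjusted p = 0.025). Leaving out any single embryo ended this call, with adjusted p from 0.053 to 0.079.

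Mdh2 encodes the mitochondrial malate dehydrogenase, which closes the turn by remaking oxaloacetate. Its signal was 5055, 5101 and 5112.5 in Rb null livers, against 5594, 5910.4 and 5793 in wild type livers. The groups did not overlap, and the spread was wider in wild type embryos (5089.7 ± 30.3 in Rb null and 5766 ± 160.1 in wild type, SD, n = 3 each). Mdh2 fell 1.13-fold (-0.18 ± 0.05, 95% interval -0.29 to -0.07, adjusted p = 0.030). Fits without 1 embryo kept this call only where wild type embryo 1 was the one omitted, and gave adjusted p from 0.060 to 0.095 in the other 5.

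The steps between succinyl-CoA and malate did not pass the test at any of the members measured. Sucla2 and Suclg1 encode the ADP-specific beta subunit and the shared alpha subunit of succinyl-CoA ligase, which makes a nucleoside triphosphate directly. Sucla2 read 964, 942 and 973 in Rb null livers and 1019.6, 972 and 1088 in wild type livers (-0.09 ± 0.06, 95% interval -0.24 to 0.05, adjusted p = 0.34), with the groups just touching. The tested probe set of Sucla2 is named as one with shared probes, so its signal may not come from Sucla2 alone. Suclg1 read 1563, 1725 and 1753 in Rb null livers and 1663, 1668 and 1783 in wild type livers (-0.02 ± 0.06, 95% interval -0.17 to 0.13, adjusted p = 0.85). Fh1, the fumarase gene, read 1737, 1892 and 1879 in Rb null livers and 1830.1, 1946 and 1995 in wild type livers (-0.07 ± 0.06, 95% interval -0.20 to 0.07, adjusted p = 0.48). In Suclg1 and Fh1 the embryos of both genotypes were interleaved, with Rb null embryo 1 the lowest of all 6.

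**Figure D1:**
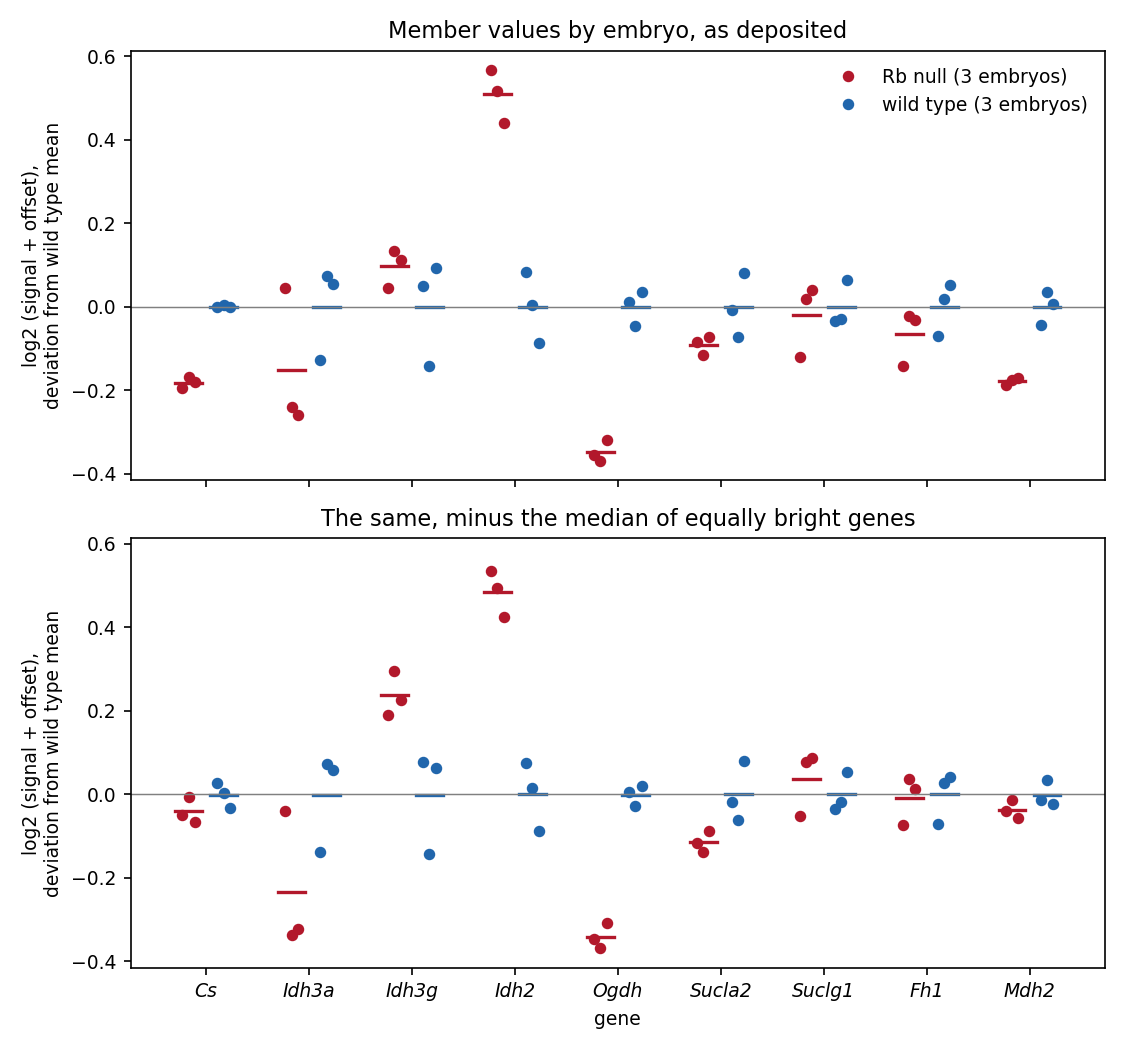
Log2 signal of each of the 9 genes in every embryo, as the deviation from the wild type mean (upper panel) and after subtracting, in each embryo, the median deviation of the tested genes in the same decile of brightness (lower panel). Points are embryos (red for Rb null, blue for wild type) and short lines are means of 3. Idh2 and Ogdh keep their separation in the lower panel, and the genotypes of Idh3g and Sucla2 separate there by less. The Rb null points of Cs and Mdh2 lie no lower than -0.07 and overlap with wild type.

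Of the 9 genes, 3 were lower and 1 was higher in Rb null livers. Among all 5273 tested genes 9.50% were called lower and 13.1% higher. The median log2 fold change was -0.09 over the 9 genes and 0.02 over all tested genes. The 3 values of Rb null livers all lay below the 3 of wild type livers in 3 of the 9 genes and in 17.6% of all tested genes, and all lay above in 1 of the 9 and in 23.5% of all. With 9 genes these shares rest on very few events.

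Brightness mattered for this reading, because the brighter a gene was, the further its change tended towards the negative. When tested genes were divided into deciles by mean log2 signal, the median log2 fold change was 0.09 in the dimmest decile and -0.15 in the brightest, and the share called lower was 0.758% in the dimmest and 33.5% in the brightest. Cs and Mdh2 both stood in the brightest decile. Their changes relative to the median of that decile were -0.03 each, and 43.6% of its genes had a lower log2 fold change than Cs and 44.9% a lower one than Mdh2. That decile spans mean signals from 2516 to 17732, and Cs, at 3093, stood near its dim end. Relative to a smooth curve of change on brightness (lowess) instead, the changes were -0.07 for Cs and -0.02 for Mdh2. The falls were therefore close to the size typical of equally bright genes, more closely for Mdh2 than for Cs.

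Ogdh and Idh2 stood apart from their deciles. Ogdh lay in the decile numbered 8, where the median was -0.01 and 13.3% of genes were called lower. Its relative change was -0.34, and 31 of the 527 genes there had a lower log2 fold change. Idh2 lay in the decile numbered 7, with a median of 0.02 and 19.0% of genes called higher, and its relative change was 0.49. Only 26 of the 527 genes in its decile had a higher log2 fold change than Idh2.

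The remaining genes spread to both sides of their deciles. Idh3g had a relative change of 0.24 (0.19 by lowess), since its small positive change sat in the brightest decile. In each Rb null embryo it was 0.19 to 0.30 above the level set by equally bright genes, against -0.14 to 0.08 in wild type embryos. Idh3a, in the decile numbered 4, had a relative change of -0.22, Sucla2 -0.11, Fh1 -0.01 and Suclg1 0.03. For Sucla2 the relative values were -0.14 to -0.09 in Rb null and -0.06 to 0.08 in wild type embryos, without overlap. These relative values were not tested. The median over the 9 genes was -0.03 relative to brightness. By embryo, the median relative deviation of the 9 genes was -0.05, -0.01 and -0.06 in Rb null livers, against -0.01, 0.00 and 0.04 in wild type livers, and the genotypes overlapped. Before this subtraction the medians were -0.12, -0.12 and -0.07 in Rb null livers, against -0.01, 0.00 and 0.05 in wild type livers, without overlap.

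**Figure D2:**
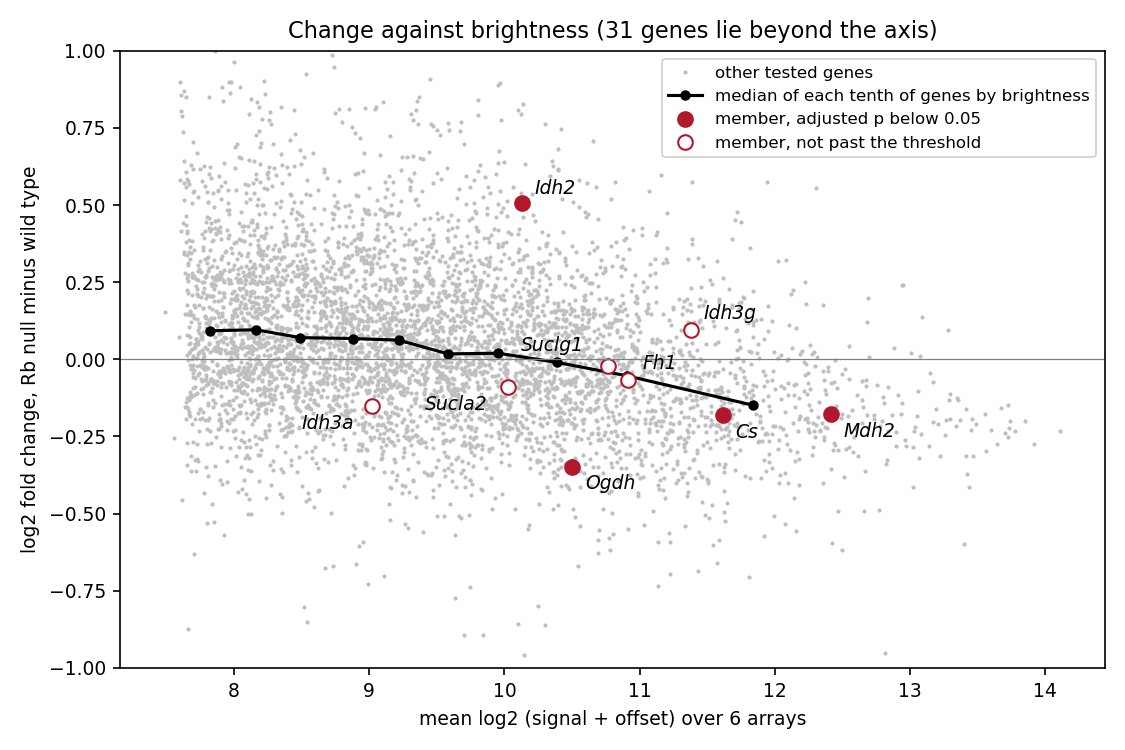
Log2 fold change (Rb null minus wild type) of every tested gene against its mean log2 signal over the 6 arrays, with the median of each decile of genes by brightness as the black line. Red circles are the 9 cycle genes, filled where the adjusted p was below 0.05; Cs and Mdh2 lie within 0.04 of the line's value for their decile, and Idh2 (0.51) and Ogdh (-0.35) lie far from it on opposite sides.

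Normalizations that remove the trend with brightness gave the same division in a fitted model. After quantile normalization Cs had a log2 fold change of -0.06 (adjusted p = 0.43) and Mdh2 -0.03 (adjusted p = 0.69), and after cyclic loess they had -0.09 (adjusted p = 0.20) and -0.03 (adjusted p = 0.65). Ogdh had -0.34 (adjusted p = 0.0054) after quantile normalization and -0.33 (adjusted p = 0.0056) after cyclic loess. Idh2 had 0.50 in both (adjusted p = 0.0028 and 0.0026). Idh3g had 0.18 (adjusted p = 0.092) and 0.17 (adjusted p = 0.11) and did not pass. Scaling the arrays to equal medians instead moved the median of all tested genes from 0.02 to -0.10, and Cs, Mdh2, Ogdh and Idh2 kept their calls at -0.32, -0.31, -0.48 and 0.38. With that scaling 25.1% of all calls were upward, against 57.9% with the deposited values.

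**Figure D3:**
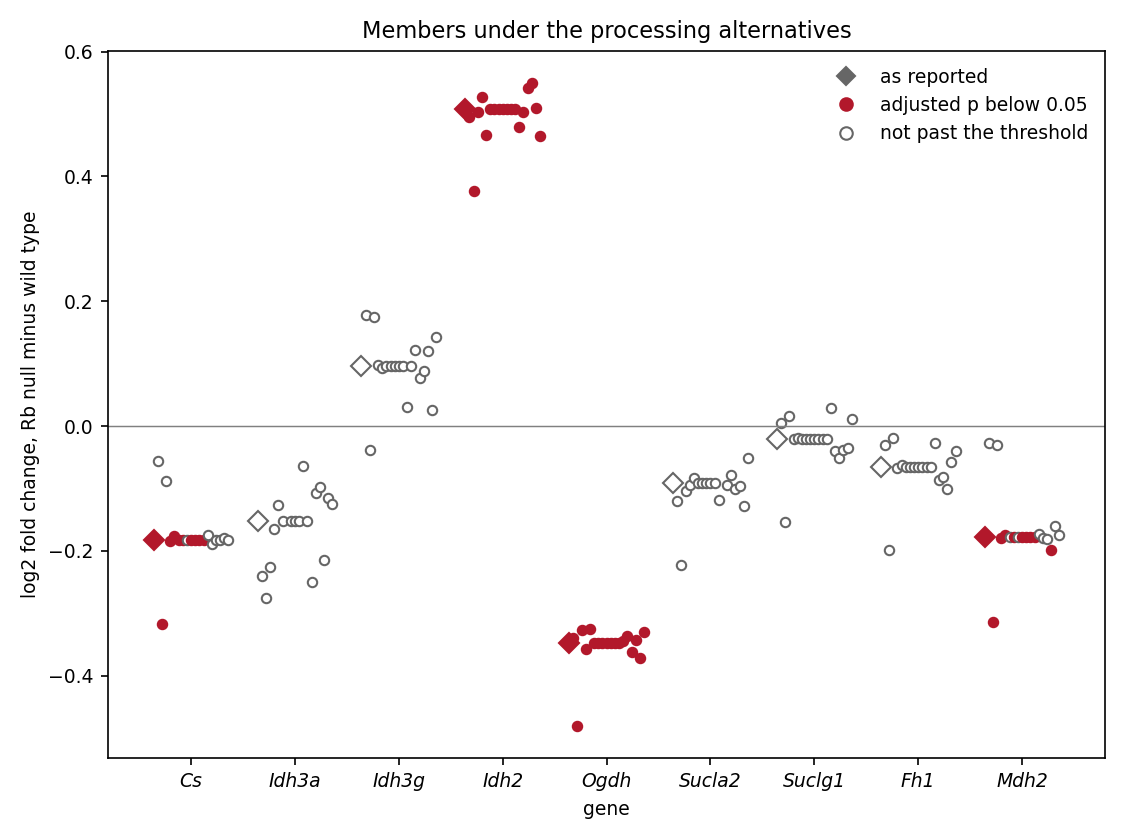
Log2 fold change of each gene as reported (diamonds) and under the 18 processing alternatives (circles, side by side), red where the adjusted p was below 0.05 and open where it was not. Ogdh and Idh2 passed under every alternative shown, and Cs and Mdh2 passed under 9 of 18. Idh3a and Sucla2 were tested under 17 of them. Idh3a fell below the stricter filter. The tested probe set of Sucla2 is named as one with shared probes and was absent where such probe sets were left out.

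The other enzymes of the cycle were looked at for comparison. Of 8 such genes on the array 7 were tested. Of these 0 passed limma's test, where 9.50% of all tested genes were called lower and 13.1% higher. An unadjusted p below 0.05 was reached by 1923 of all 5273 tested genes and by 1 of these 7. That one was Sdhd, a membrane anchor of succinate dehydrogenase. It read 3440.4, 3695 and 3964 in Rb null livers, against 3259.8, 3052 and 3339 in wild type livers, with all Rb null embryos higher (0.20 ± 0.07, adjusted p = 0.066). Its relative change was 0.35, and it passed after quantile normalization (0.31, adjusted p = 0.011) and cyclic loess (0.30, adjusted p = 0.011). After median scaling Sdhd had 0.06 (adjusted p = 0.61). The catalytic subunit gene Sdha (0.07 ± 0.09, adjusted p = 0.64), the iron-sulphur subunit gene Sdhb (-0.01 ± 0.05, adjusted p = 0.94) and the other anchor gene Sdhc (-0.12 ± 0.08, adjusted p = 0.32) did not pass. Neither did Suclg2, the GTP-specific beta subunit of succinyl-CoA ligase (0.11 ± 0.09, adjusted p = 0.42). The median over these 7 genes was -0.01, and 0.04 relative to brightness.

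Upstream of citrate synthase, pyruvate enters through the pyruvate dehydrogenase complex. Of 5 tested genes of this step 1 rose and 0 fell, where 13.1% of all tested genes were called higher and 9.50% lower. Pdk1, a kinase that inactivates the complex, read 1519, 1550.2 and 1544 in Rb null livers, against 1001.5, 964 and 1043 in wild type livers, a 1.51-fold rise (0.59 ± 0.06, adjusted p = 4.3e-04) called under all 18 alternatives. The embryos of the genotypes were far apart. Dlat, the E2 acetyltransferase of the complex, read 487, 524 and 471 in Rb null livers and 353, 456 and 319 in wild type livers without overlap, but did not pass (0.36 ± 0.12, adjusted p = 0.066).

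Of 6 cytosolic counterparts on the array 4 were tested, and the one call among them, Me1, passed the filter only through its Rb null values, so that no count is read from this list. Me1, the cytosolic malic enzyme that makes NADPH, read 236, 220.1 and 214 in Rb null livers and 151.5, 161 and 122 in wild type livers (0.49 ± 0.12, adjusted p = 0.021). Its wild type mean of 145 was below the filter, which leaves the size of the difference uncertain, and with no filter the call was lost (adjusted p = 0.054). The call did not hold either when Rb null embryo 1 (adjusted p = 0.074) or 2 (adjusted p = 0.063) was omitted, nor when wild type embryo 3 was (adjusted p = 0.062). Acly, which cleaves exported citrate, had 0.19 ± 0.08 (adjusted p = 0.14). Of 6 tested genes that link the cycle to amino acids and transport, 0 passed limma's test. Over all tested genes 9.50% were called lower and 13.1% higher. An unadjusted p below 0.05 was reached by 1923 of all 5273 tested genes and by 0 of these 6. The smallest p values there belonged to the dicarboxylate carrier gene Slc25a10 (-0.16 ± 0.10, adjusted p = 0.27) and to the glutamate dehydrogenase gene Glud1 (0.07 ± 0.06, adjusted p = 0.45).

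**Figure D4:**
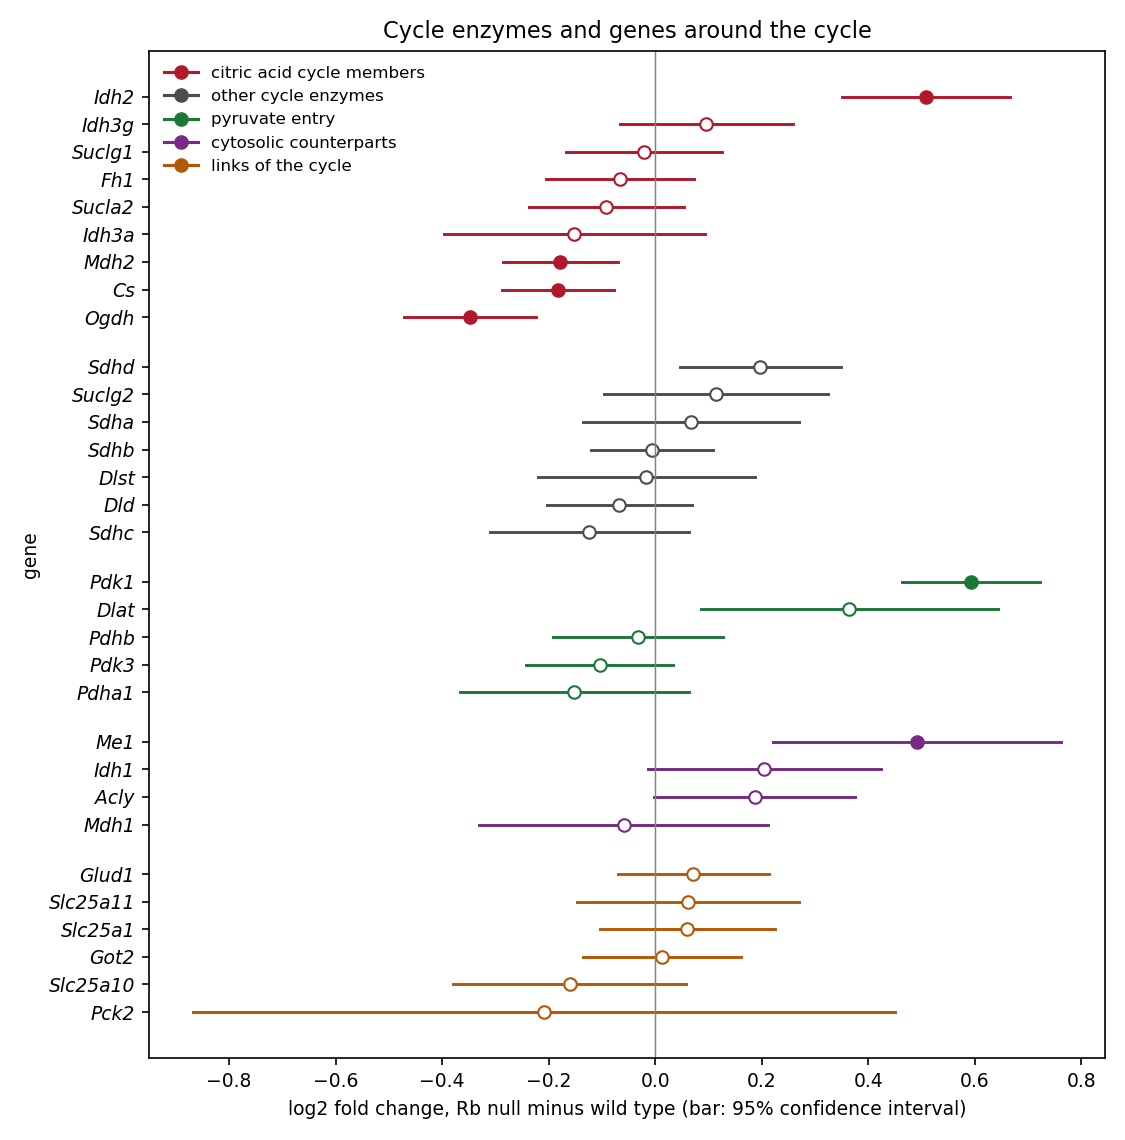
Log2 fold change with its 95% confidence interval for every tested gene of the cycle and of the 3 lists around it, filled where the adjusted p was below 0.05. Filled points are Idh2, Mdh2, Cs and Ogdh among the 9 cycle genes, and Pdk1 and Me1 outside them, where Me1 passed the filter only through its Rb null values and was not called with no filter (adjusted p = 0.054).

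Genes of mitochondrial content and biogenesis showed small changes. The median over the 12 tested genes was -0.09, or -0.07 relative to brightness. Of these, 2 fell and 0 rose, where 9.50% of all tested genes were called lower and 13.1% higher. The 2 were the import channel genes Tomm40 (865 ± 51.9 in Rb null livers and 1027 ± 52.0 in wild type livers, -0.24 ± 0.07, adjusted p = 0.045) and Timm23 (3899.6 ± 246 and 4564 ± 177 in the same order, -0.23 ± 0.06, adjusted p = 0.033). Timm23 stood in the brightest decile with a relative change of -0.08, and it was not called after quantile normalization (-0.11, adjusted p = 0.32) or cyclic loess (-0.10, adjusted p = 0.31). Tomm40 had a relative change of -0.26 and was called after both (adjusted p = 0.031 and 0.041). Each was called under 9 of 18 alternatives. Leaving out any single embryo ended the Tomm40 call (adjusted p from 0.063 to 0.14), and leaving out any except Rb null embryo 1 ended that of Timm23 (adjusted p from 0.062 to 0.096).

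The 5 tested genes outside the 9 whose values over the 6 embryos lay nearest to the mean profile of the 9 were St13, Cdt1, Itsn1, Coq3 and Bpnt2. Their root mean square differences from it were 0.02 on the log2 scale, and their log2 fold changes ran from -0.07 to -0.02. These were picked as the nearest of all tested genes, so their distances are a description only. The 9 genes themselves lay 0.04 (Sucla2) to 0.29 (Idh2) from their own mean profile.

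Cell type markers were read in the same livers, where 9.50% of all tested genes were called lower and 13.1% higher. Of 11 erythroid markers 8 were lower and 0 higher, with a median log2 fold change of -0.49, or -0.34 relative to brightness. Their summed signals were 55160 to 60668 in Rb null livers and 71082.5 to 77059.6 in wild type livers. Of 12 hepatoblast markers 2 were lower and 2 higher, with sums of 46145.5 to 49037 in Rb null livers and 48763 to 52783 in wild type livers. The sums follow the brightest probe sets, and the median log2 fold change of the hepatoblast list was 0.12, with 4 of 12 negative. Higher markers, with none lower, numbered 4 of 7 tested for mesenchyme (sums of 11992 to 13607 in Rb null and 9564 to 10005 in wild type), 2 of 6 for endothelium (4461 to 4885 and 3715 to 4006) and 3 of 8 for macrophages (4634 to 5104 and 4130 to 4468). They numbered 1 of 2 for megakaryocytes (1321 to 1657 and 915 to 1023) and 1 of 4 for granulocytes (3571 to 3939.9 and 3202 to 3307), again with Rb null first. Counts from lists this short are a description only. No marker was listed at 0, and Pecam1, Ctsg, Adgre1, Pf4 and Des were below the filter. Alb was the brightest hepatoblast marker and Hba-a1 the brightest erythroid one, both defining the labelled tissue. The part of these cell type differences in the values of the cycle genes was not tested.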

How the data were processed

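The deposited values are linear intensity signals per probe set from 6 Affymetrix arrays, computed by the authors with MAS5 (per the labels; its version and scaling target are not given in the sources used here). They were neither centred nor log-transformed. Array controls (66 probe sets) were left out. Genes came from the platform annotation: 10833 probe sets had 1 symbol, 396 several and 1193 none, and each gene stood by its brightest probe set. Rb null and wild type livers (3 embryos each) were set against each other by two-sided tests in limma 3.58.1 (R 4.3.3) with an intensity trend, and p values were adjusted by Benjamini-Hochberg over all 6793 tested probe sets. The procedure was tested on simulated data. Brightness was divided into 10 groups of tested genes, whose medians were subtracted. Named genes were the 9 members, the other cycle enzymes, up to 4 called genes of each further list (or the 2 with the smallest p), and the 5 nearest in profile. Members and lists were chosen with earlier results of these data known. Alternatives covered normalization, offset, filter, variance model, replicate block, probe set choice and leaving out each embryo.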

Additional observations from a re-analysis of the deposited data

How the results depend on the processing

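The rise of Idh2 and the fall of Ogdh kept direction and call under all 18 alternatives (0.38 to 0.55 and -0.48 to -0.33). The number of the 9 genes called lower was 1 after quantile normalization, after cyclic loess and with no intensity trend, and 1 to 2 on leaving out an embryo. With no filter it was 2, Mdh2 being lost (adjusted p = 0.060). Suclg1, never called, changed sign after quantile normalization (0.0049), after cyclic loess (0.0167) and without Rb null embryo 1 (0.0289) or wild type embryo 3 (0.0109), with a range of -0.0513 to 0.0289 over the embryos left out. Idh3g, also never called, read -0.0384 after median scaling. Of the other cycle enzymes, 1 was called higher (Sdhd) after quantile normalization and after cyclic loess, and 1 lower (Sdhc) after median scaling. Of all tested genes, median scaling called 1093 lower and 366 higher, the stricter filter of 500.2 called 428 higher, and leaving out an embryo called 257 to 428 lower and 406 to 553 higher. The cause of these shifts was not tested. The replicate block called 488 genes lower and 639 higher, against 501 and 690 without it, and changed no call among the 9. The labels do not say whether embryos of equal number were paired. The correlations of their deviations were -0.06, 0.05 and 0.27, the last being the highest of any pair across genotypes. Rb null embryo 1 correlated best with wild type embryo 2 (0.22), and these values do not settle pairing. The median of the 9 genes relative to brightness stayed between -0.05 and -0.01, with lowess in place of the medians of deciles included. For probe sets below the filter no level above background was established here.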
